A study of Mus musculus with 6 samples.

Results

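The genes described here are 41 genes of motile cilia and of the ependymal cells that carry them, taken by gene name from the 35148 genes of a count table; all 41 were found there. The table comes from RNA sequencing of the mouse paraventricular nucleus of the hypothalamus (PVH). Every mouse carried Ruvbl2fl/fl, that is, Ruvbl2 alleles flanked by loxP sites, and received adeno-associated virus of serotype 2 in the PVH: AAV2-GFP, with the green fluorescent protein alone, in 3 samples, and AAV2-Cre-GFP, with Cre recombinase as well, in 3 others. Tissue was taken 8 weeks after infection, so both groups share the floxed alleles, the injection and GFP. The labels give neither the mice's age nor the promoter that drives Cre, and they leave unsaid which libraries come from separate mice; the p-values therefore describe only how these 6 libraries vary.

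Ependymal cells form the lining of the brain ventricles, and the third ventricle borders the PVH. Their beating cilia move cerebrospinal fluid. Each motile cilium is built on an axoneme of doublet microtubules around a central pair, with dynein arms that generate the beat and with radial spokes and nexin links that control it. The transcription factor FOXJ1, with factors of the RFX family, switches on the genes of this structure, and many of these genes also serve the sperm flagellum, so that testis expresses them too.

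Several libraries stood apart, which bears on the values below. For Ruvbl2, the floxed gene, no decrease was seen with the AAV2-Cre-GFP label (log2 difference 0.077, 95% interval -0.18 to 0.33, edgeR adjusted p = 0.773). The groups are therefore called GFP-labelled and Cre-labelled. This value is a count per gene in bulk tissue, and whether Cre cut the alleles in infected cells was not tested. A list of 32 testis germ cell genes summed to 926 normalised CPM (a gene's count scaled by the library's total and TMM factor) in GFP-labelled library 1 and to between 21.9 and 26.1 in the other 5. Prm2, Tnp2 and Ldhc led it: in GFP-labelled library 1 they reached 92.2, 90.0 and 89.0 CPM, and elsewhere none exceeded 0.412 CPM. Acrv1 had counts in that library only. Kidney epithelium was represented by 14 genes, led by Umod, Kap and Lrp2, whose sum was 529 CPM in Cre-labelled library 2, 571 CPM in Cre-labelled library 3 and at most 59.5 CPM in the other 4. The ribosomal RNA model CT010467 ranged from 2120 to 2246 CPM under the GFP label and reached 17144, 13457 and 7202 CPM under the Cre label. The PVH genes Sim1, Oxt, Avp and Crh were present in all 6 libraries, Sim1 at 11.8 to 26.9 CPM and Oxt at 34.0 to 372 CPM. Their levels were not even: Sim1, Oxt and Avp were each higher in GFP-labelled libraries 2 and 3 than in any other library. Oxt was lowest in Cre-labelled library 1. Crh stood at 9.39, 11.6 and 14.2 CPM under the GFP label, against 6.99, 5.44 and 6.91 CPM under the Cre label, without overlap. Its log2 difference was -0.87 (edgeR adjusted p = 0.104, DESeq2 adjusted p = 0.00378). Total counts ran from 41890769 to 54702785.

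Promoters were taken from the RefSeq table of GRCm38.p6, which gives the 250 bases before and the 50 bases after a transcription start and matched 32 of the 41 genes by symbol. A core of the X-box, the element bound by RFX factors, was searched as GTTGCC on both strands. It lay in the promoters of 15 of the 32 genes (46.9%), against 14.1% of all 27025 genes in the table and 15.1% of the 13781 genes that were also tested here. The forkhead core TGTTTAC, on both strands, lay in 2 of 32 (6.25%, against 4.05% of all genes). A full X-box, searched only as GTTNCC and GGNAAC with 0 to 3 bases between them, can include GTTGCC. It lay in 1 of 32, Pifo, against 0.936% of all genes. Full X-boxes with other letters in either part were not searched. These are matches of letters and do not show binding. Of the genes whose 2 groups of libraries did not overlap (below), 10 had a promoter in the table and 4 of these held GTTGCC; of the remaining 22, 11 did. Shown here, 5′ to 3′ on the gene's own strand, are those 4 promoters and that of Ak7, in each case with the motif in capitals: GTTGCC or its reverse complement in Ccdc153, Drc1, Dynlrb2 and Spef2, and TGTTTAC in Ak7. GTTGCC starts 152, 11 and 51 bases before the annotated start in Ccdc153, Drc1 and Dynlrb2, and in Spef2 it lies just after the start; the forkhead core starts 131 bases before that of Ak7.
Ccdc153 (chr9:44240427-44240726, plus strand): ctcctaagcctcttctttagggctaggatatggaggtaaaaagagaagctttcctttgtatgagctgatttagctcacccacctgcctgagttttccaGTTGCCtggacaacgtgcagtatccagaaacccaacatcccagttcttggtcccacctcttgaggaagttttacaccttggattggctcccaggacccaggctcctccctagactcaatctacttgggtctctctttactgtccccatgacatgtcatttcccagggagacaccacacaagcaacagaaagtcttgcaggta
Drc1 (chr5:30281143-30281442, plus strand): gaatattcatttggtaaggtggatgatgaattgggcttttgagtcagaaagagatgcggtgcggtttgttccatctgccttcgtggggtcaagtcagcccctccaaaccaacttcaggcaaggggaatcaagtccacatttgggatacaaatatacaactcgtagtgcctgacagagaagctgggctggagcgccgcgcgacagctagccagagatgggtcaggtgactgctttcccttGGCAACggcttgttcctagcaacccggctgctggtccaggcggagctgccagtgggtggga
Dynlrb2 (chr8:116504765-116505064, plus strand): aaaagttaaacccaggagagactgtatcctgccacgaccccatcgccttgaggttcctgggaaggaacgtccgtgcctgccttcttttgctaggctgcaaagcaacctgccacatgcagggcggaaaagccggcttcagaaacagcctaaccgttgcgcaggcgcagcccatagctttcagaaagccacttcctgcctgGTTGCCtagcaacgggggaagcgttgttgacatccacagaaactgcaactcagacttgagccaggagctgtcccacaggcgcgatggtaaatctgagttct
Spef2 (chr15:9748819-9749118, minus strand): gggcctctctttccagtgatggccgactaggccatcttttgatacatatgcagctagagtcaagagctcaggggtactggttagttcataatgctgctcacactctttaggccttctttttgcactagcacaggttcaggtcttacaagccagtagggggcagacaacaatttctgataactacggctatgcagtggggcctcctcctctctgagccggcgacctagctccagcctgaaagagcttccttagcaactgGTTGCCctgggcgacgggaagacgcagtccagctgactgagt
Ak7 (chr12:105705732-105706031, plus strand): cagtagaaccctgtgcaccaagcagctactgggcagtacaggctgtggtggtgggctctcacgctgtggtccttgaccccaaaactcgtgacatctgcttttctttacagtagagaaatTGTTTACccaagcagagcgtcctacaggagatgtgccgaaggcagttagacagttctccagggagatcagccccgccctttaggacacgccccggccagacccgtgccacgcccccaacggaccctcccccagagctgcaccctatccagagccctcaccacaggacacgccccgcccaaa

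Per kilobase of transcript, the deposited FPKM values spread widely among the genes. The highest mean over 6 libraries was that of Tppp3, a tubulin-polymerising protein that oligodendrocytes make too, at 36.1 FPKM. Next came Cd24a (18.3), Rsph1 (17.1), Tmem212 (15.9), Foxj1 (15.4), Ccdc153 (15.2) and Dynlrb2 (14.3 FPKM). The place of Rsph1 rests on GFP-labelled library 1, at 35.4 FPKM, since the other 5 lay between 11.8 and 15.2 FPKM. The dynein heavy chains, which are very long genes, lay between 1.17 (Dnah12) and 3.13 FPKM (Dnah6). Spag6 was the lowest at 0.203 FPKM. Foxj1, Ccdc153 and Tmem212, used here as markers of ependymal cells, had between 352 and 3135 counts in each library, so these markers were detected in all 6. In bulk tissue a higher level may stand for more cells of a type or for more RNA per cell, and these cannot be told apart here.

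**Figure D1:**
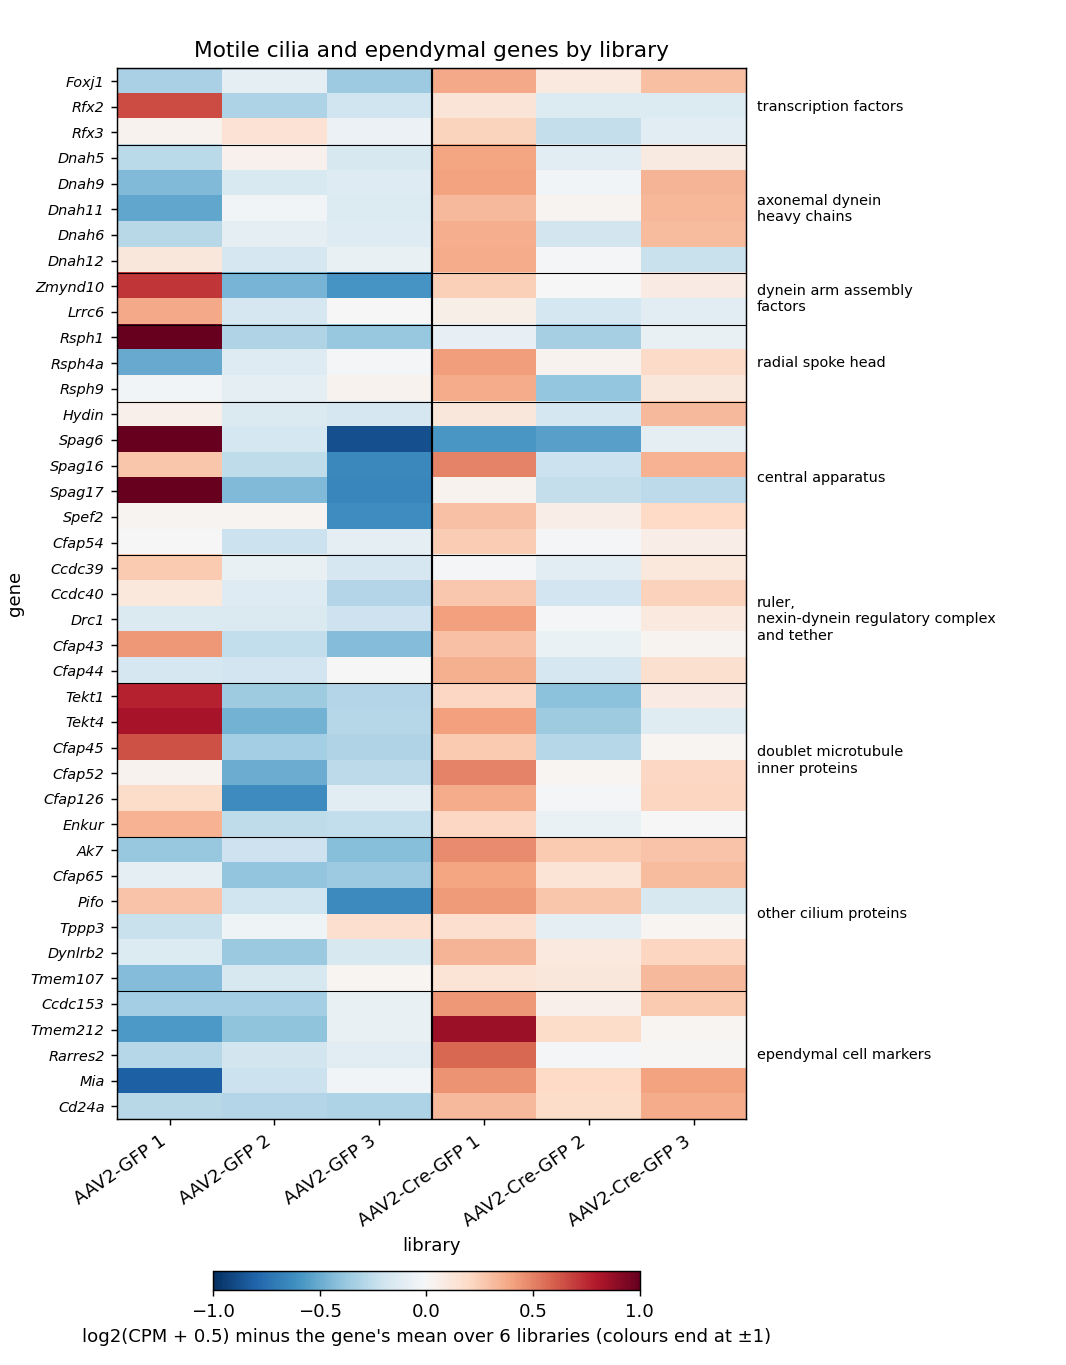
Level of each of the 41 genes (rows, by role) in each of the 6 libraries (columns), as log2(CPM + 0.5) minus the gene's mean over the libraries; red is above and blue below that mean. Cre-labelled library 1 was the highest of the 6 for 24 genes, and GFP-labelled library 1 was the highest for 12 and the lowest for 10.

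Across the list, levels were mostly higher in the Cre-labelled libraries, by a modest amount, but no single gene passed the threshold. The log2 difference, Cre-labelled minus GFP-labelled, was above 0 for 31 of the 41 genes (49% of all 20865 genes tested) and below 0 for 10. Its median was 0.27, with quartiles of 0.057 and 0.46, against a median of -0.0058 over all genes. In edgeR's quasi-likelihood test 0 of 41 genes had an adjusted p under 0.05, where 0.00959% of all genes did. At an unadjusted p under 0.05, 16 of the 41 were higher (8.11% of all genes) and 0 lower (9.11% of all genes). The groups did not overlap for 15 of the 41 in the higher direction (11.1% of all genes) and for 0 in the lower one (11.7% of all genes). DESeq2, an alternative test, called 7 of the 40 genes to which it gave an adjusted p, all of them higher (of all genes 3.12% were called higher and 4.91% lower): Foxj1, Dnah9, Ak7, Cfap65, Ccdc153, Tmem212 and Cd24a. With a robust edgeR fit Ak7 and Cd24a were called (0.0383% of all genes were called higher), as they were in edgeR without Cre-labelled library 1 (1.12%). With limma on the FPKM values and a pseudocount of 0.1, Cd24a alone was called (0.069%).

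Single libraries moved these values. GFP-labelled library 1, the one with germ cell transcripts, stood at 1.5 times or more the mean of GFP-labelled libraries 2 and 3 for 12 of the 41 genes (12.3% of all genes). Without that library 39 of the 41 differences were above 0 (51.6% of all genes), with a median of 0.36 and quartiles of 0.26 and 0.51. At an unadjusted p under 0.05, 20 of 41 were then higher (7.71% of all genes), while edgeR's adjusted p was under 0.05 for 0 (0% of all genes were called higher), and DESeq2 called 7 of 40 (2.41%). Each Cre-labelled library lay above GFP-labelled libraries 2 and 3 for 26 of the 41 (16.7% of all genes). Leaving out Cre-labelled library 1 instead gave 27 of 41 above 0 (50.3% of all genes), a median of 0.19 and 10 higher at an unadjusted p under 0.05 (8.7%). Of the 10 genes below 0 with all 6 libraries, 9 were above 0 without GFP-labelled library 1, and Rfx3 was at -0.08. Tppp3 moved from 0.057 to -0.035. Summed over the 41 genes, the level was 1016.5, 879 and 883 CPM in GFP-labelled libraries 1 to 3 against 1256, 977 and 1128 CPM under the Cre label. Cre-labelled library 2 thus lay below GFP-labelled library 1 in this sum and above the other two. Cre-labelled library 1, with the highest sum, had a kidney sum of 40.4 CPM and the highest level of the ribosomal RNA model, and the part of either in the result was not tested. With all 3 libraries that hold transcripts of other organs removed, 2 GFP-labelled libraries were set against the lone Cre-labelled library 1, which is assumed to vary as they do. Then 40 of 41 differences were above 0 (49.9% of all genes), the median was 0.56, 33 were higher at an unadjusted p under 0.05 (7.19%) and edgeR called 14 higher (1.24%).

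Transcription factors head the programme, and of the 3 in the list Foxj1 alone had groups that did not overlap. Foxj1, the master regulator of motile cilia (chromosome 11, 116330704 to 116335399, minus strand, GRCm38), stood at 36.4, 42.9 and 35.5 CPM under the GFP label (libraries 1 to 3), against 59.7, 49.0 and 56.5 CPM under the Cre label. The groups did not overlap. The log2 difference was 0.53 ± 0.10 (SE; 1.44-fold; edgeR adjusted p = 0.0855; DESeq2 adjusted p = 0.000437), and it was 0.49 without GFP-labelled library 1. Rfx3, an RFX factor of ependymal cilia, stood at 35.03, 37.9 and 32.9 against 40.1, 29.0 and 31.6 CPM. Its groups overlapped, with a log2 difference of -0.07 ± 0.13 (SE) and a 95% interval of -0.36 to 0.22. Rfx2, a related factor that spermatids need as well, stood at 21.98 CPM in GFP-labelled library 1, above the other 5, which lay between 11.03 and 15.2 CPM; its log2 difference was -0.16, and 0.22 without that library.

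Axonemal dynein heavy chains are the motors of the outer and inner arms, and all 5 in the list had differences above 0, from 0.10 to 0.49 with a median of 0.36. Dnah9, an outer arm motor, stood at 24.7, 30.2 and 30.8 CPM with the GFP label and at 44.6, 33.0 and 42.7 CPM with the Cre label. Its groups did not overlap (log2 difference 0.49 ± 0.14, SE; edgeR adjusted p = 0.145; DESeq2 adjusted p = 0.017). Dnah11, an outer arm motor as well, stood at 13.6, 19.3 and 17.9 against 24.8, 20.03 and 24.9 CPM (0.46 ± 0.15; edgeR adjusted p = 0.193), again without overlap. For Dnah6, a chain of the inner arms, Cre-labelled library 2 at 41.6 CPM lay inside the GFP-labelled range of 39.0 to 44.1 CPM, and the other 2 Cre-labelled libraries at 61.0 and 59.1 CPM lay above it. Dnah5 and Dnah12 overlapped too, with log2 differences of 0.27 and 0.10. The ratio of GFP-labelled library 1 to the mean of GFP-labelled libraries 2 and 3 ran from 0.731 for Dnah11 to 1.18 for Dnah12, the only one of the 5 above 1. Without that library the 5 differences lay between 0.19 and 0.39. Without Cre-labelled library 1 the difference of Dnah12 turned to -0.077 and that of Dnah5 was 0.13, while those of Dnah6, Dnah9 and Dnah11 were 0.27, 0.42 and 0.42.

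Dynein arms are assembled in the cytoplasm by dedicated factors, of which the list holds Zmynd10 and Lrrc6. Zmynd10 stood at 16.1, 6.84 and 6.23 CPM under the GFP label (libraries 1 to 3), against 11.4, 9.66 and 10.2 CPM under the Cre label. All 3 Cre-labelled libraries lay between GFP-labelled library 1 and the other 2 GFP-labelled ones. The log2 difference was 0.10 ± 0.35 (SE), and 0.67 ± 0.15 without GFP-labelled library 1 (edgeR adjusted p = 0.916 and 0.13). Lrrc6 was at 8.77 CPM in that library and between 5.79 and 6.92 CPM in the other 5, and its difference was -0.17 with it and 0.0069 without it. Over 10.1% of the exonic length of Zmynd10 an antisense gene, Gm34106, overlaps, and whether strand was used in counting is not given in the sources used here.

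The radial spoke heads relay signals from the central pair to the dynein arms. Rsph1 stood at 56.9 CPM in GFP-labelled library 1 and at 20.1 and 19.1 CPM in GFP-labelled libraries 2 and 3, against 23.5, 19.7 and 23.6 CPM with the Cre label. Its log2 difference was thus -0.52 ± 0.39 (SE) with all libraries and 0.18 without GFP-labelled library 1. Rsph4a behaved otherwise, at 21.1, 27.5 and 29.8 against 40.4, 30.8 and 34.4 CPM: GFP-labelled library 1 was the lowest of the 6 and the groups did not overlap (0.43 ± 0.15, SE; edgeR adjusted p = 0.208). Rsph9 overlapped, with 16.2 CPM in Cre-labelled library 2 as the lowest and 27.7 CPM in Cre-labelled library 1 as the highest value (0.10 ± 0.18, SE).

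Central apparatus proteins, which form the projections of the central pair, held the widest range. Spag17 stood at 36.4, 8.75 and 7.50 CPM under the GFP label (libraries 1 to 3), against 12.4, 10.2 and 9.99 CPM under the Cre label. GFP-labelled library 1 was 4.48 times the mean of the other 2 of its group, and the log2 difference moved from -0.69 ± 0.55 (SE) to 0.41 ± 0.16 without it (edgeR adjusted p = 0.567 and 0.279). On the other strand, Wdr3 overlaps 9.66% of the exonic length of Spag17, and Spag17os overlaps 6.08% of it. Spag6 had 172 counts in GFP-labelled library 1, 13 in library 2 and 0 in library 3, where a count of 0 allows up to 0.0607 CPM of the library total (3 counts, counting error only), and 5, 6 and 20 counts in the Cre-labelled libraries. The library with germ cell transcripts thus had more Spag6 counts than the other 5 together. Its paralogue Spag6l, which is not in the list and was picked after its values were seen, stood at 24.0, 12.5 and 15.5 against 18.4, 15.7 and 18.3 CPM. Per kilobase its mean over the 6 libraries was 3.28 FPKM, against 0.203 FPKM for Spag6. Spef2 was at 12.4, 12.4 and 7.73 against 15.0, 12.8 and 14.05 CPM, without overlap (0.36 ± 0.20, SE; edgeR adjusted p = 0.39), although GFP-labelled libraries 1 and 2 and Cre-labelled library 2 lay close together. Hydin, Spag16 and Cfap54 overlapped, with log2 differences of 0.19, 0.42 and 0.21.

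Proteins that set the repeat of the axoneme and tie its parts together came next. Drc1, a subunit of the nexin-dynein regulatory complex, stood at 27.2, 27.2 and 26.1 CPM with the GFP label and at 40.2, 30.0 and 32.3 CPM with the Cre label. The GFP-labelled values lay within a narrow range that no Cre-labelled library entered (0.35 ± 0.11, SE; edgeR adjusted p = 0.188). Ccdc39 and Ccdc40, the molecular ruler, overlapped between the groups at -0.02 and 0.22; 16.9% of the exonic length of Ccdc39 overlaps Ttc14 on the other strand. Cfap43 and Cfap44, which tether inner arm dyneins, were at 0.13 and 0.25. Cfap43 had its highest value in GFP-labelled library 1, at 30.6 CPM, and its difference without that library was 0.44.

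**Figure D2:**
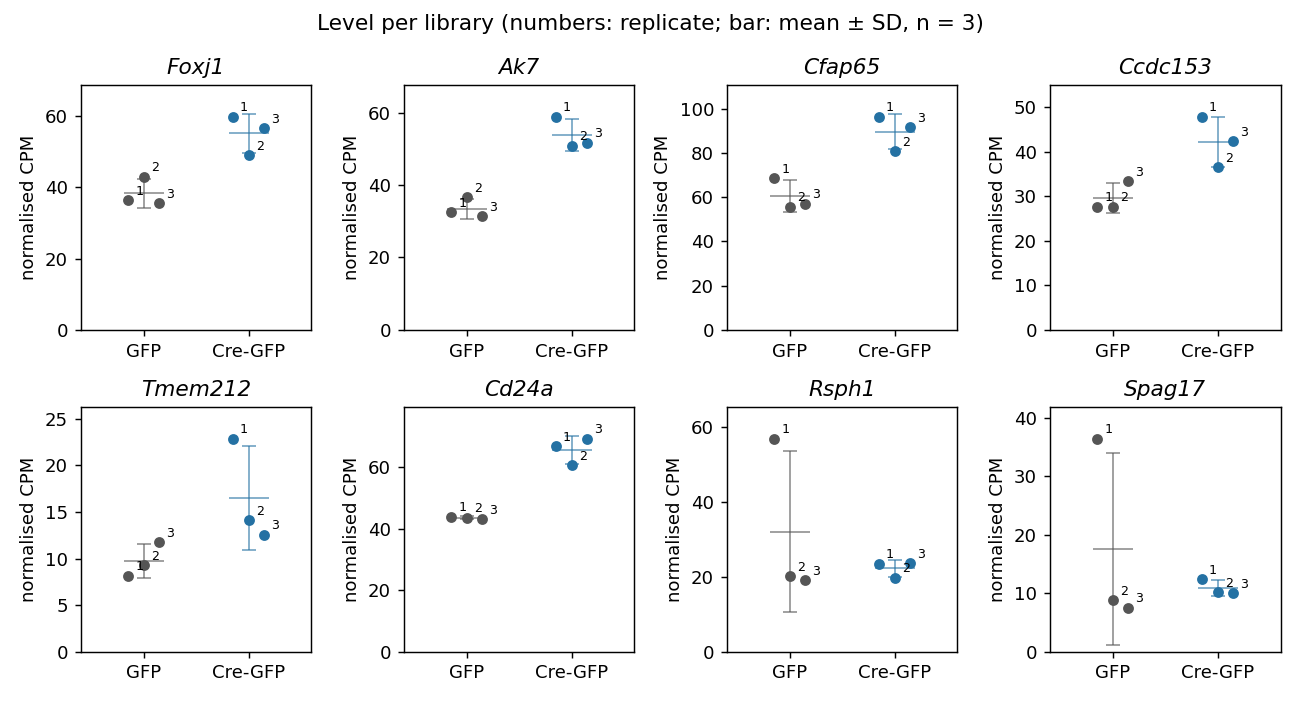
Normalised CPM of 8 genes in the 3 GFP-labelled and 3 Cre-labelled libraries; points are libraries with their replicate number, and bars are mean ± SD (n = 3). In the first 6 panels the groups did not overlap, and for Rsph1 and Spag17 GFP-labelled library 1, at 56.9 and 36.4 CPM, lay far above the other 5.

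Proteins inside the doublet microtubules, which stiffen them, were the set most marked by GFP-labelled library 1: for 4 of 6 it stood at 1.5 times or more the mean of the other 2 GFP-labelled libraries. Tekt1, a tektin, was at 19.8, 8.80 and 9.26 against 13.2, 8.49 and 12.1 CPM. Tekt4, a second tektin, was at 9.60, 3.61 and 4.16 against 7.06, 3.96 and 4.72 CPM. In both, GFP-labelled library 1 was the highest and Cre-labelled library 1 the second highest of the 6. Cfap45 and Enkur showed the same highest library, at 21.8 and 16.5 CPM. Over the 6 genes the median log2 difference was 0.0091 with all libraries and 0.39 without GFP-labelled library 1. Cfap52 differed by 0.50 ± 0.19 (SE; edgeR adjusted p = 0.24) and Cfap126, known as Flattop, by 0.36, and the groups overlapped for all 6. The gene 9130017K11Rik overlaps 8.36% of the exonic length of Cfap52 on the other strand.

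**Figure D3:**
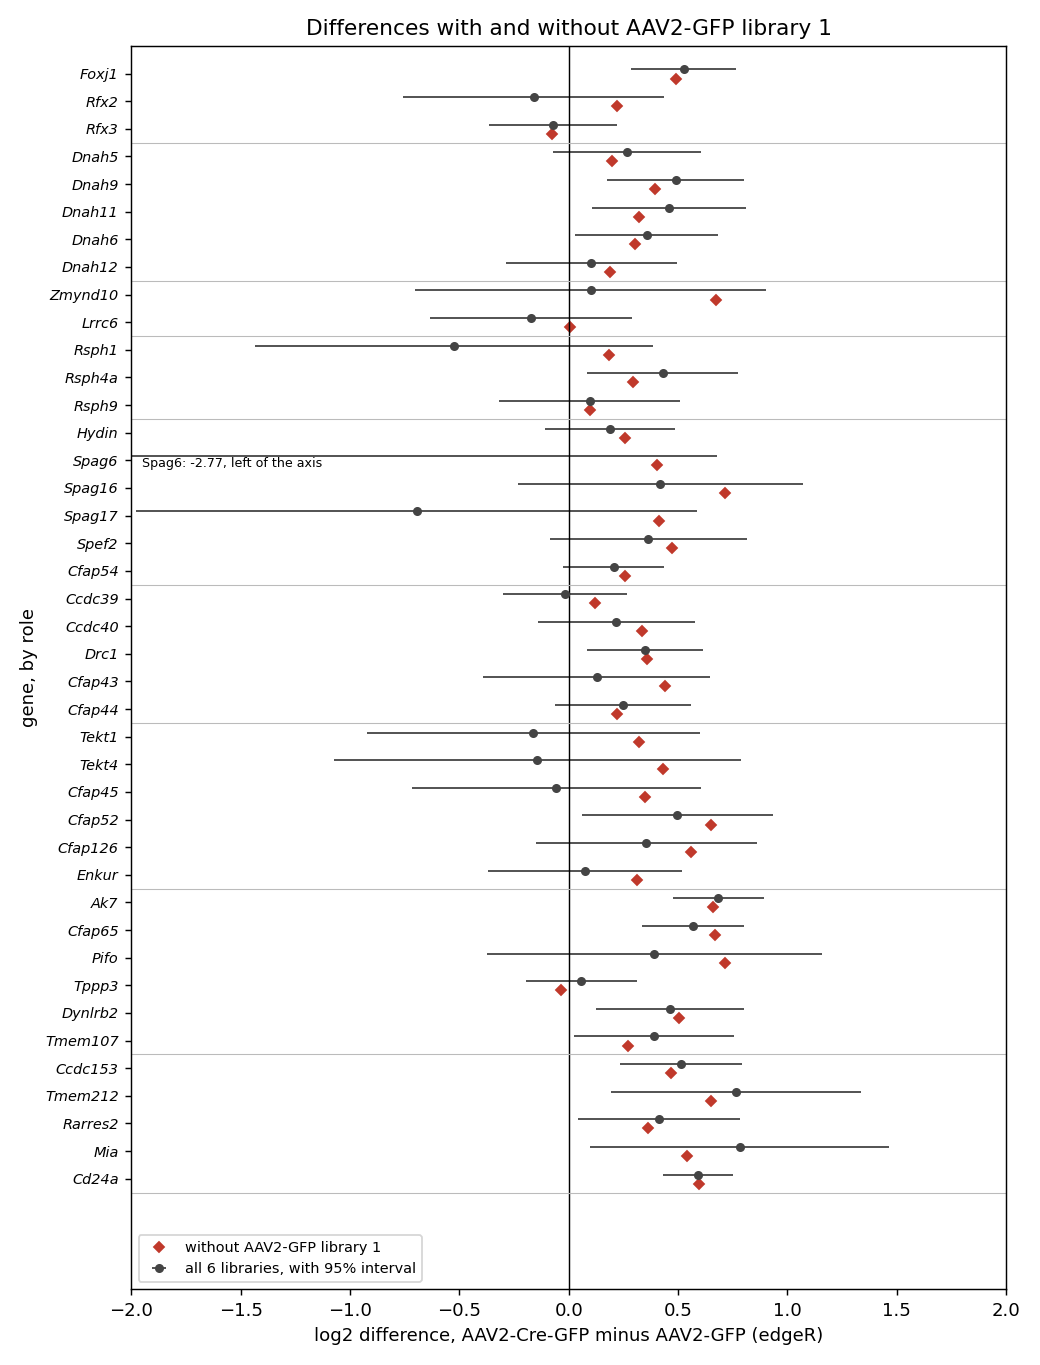
Log2 difference of each gene, Cre-labelled minus GFP-labelled, from edgeR with all 6 libraries (points, with 95% intervals) and without GFP-labelled library 1 (diamonds), by role. The diamonds lie above 0 for 39 of 41 genes, and Spag6, at -2.77 with all libraries, lies left of the axis.

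Other proteins of the cilium included 2 of the 3 genes with the smallest p of the list. Ak7, an adenylate kinase that supplies energy in cilia (chromosome 12, 105705976 to 105782447, plus strand), stood at 32.4, 36.6 and 31.4 CPM under the GFP label (libraries 1 to 3), against 58.8, 50.8 and 51.7 CPM under the Cre label. The gap between the groups was wider than the range within either, and the log2 difference was 0.68 ± 0.090 (SE; 1.61-fold; edgeR adjusted p = 0.0705). Cfap65, a cilium and flagellum protein, stood at 68.7, 55.7 and 57.0 against 96.3, 80.8 and 91.6 CPM (0.57 ± 0.10, SE; edgeR adjusted p = 0.0758). Neither leaned on GFP-labelled library 1, since without it the differences were 0.66 and 0.67 (edgeR adjusted p = 0.0924 for both). DESeq2 called both, with adjusted p of 7.15e-08 and 2.77e-05. Dynlrb2, a light chain of dyneins, stood at 8.21, 6.91 and 8.08 against 11.6, 9.75 and 10.6 CPM, and Tmem107, a protein of the ciliary transition zone, at 7.82, 9.58 and 10.9 against 11.8, 11.7 and 13.6 CPM; both were without overlap, at edgeR adjusted p of 0.179 and 0.263. Pifo overlapped between the groups, at 1.82 to 3.91 against 2.74 to 4.36 CPM. Tppp3, at 66.0, 74.7 and 86.6 against 86.4, 72.0 and 78.1 CPM, showed no separation (0.057 ± 0.11, SE).

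The remaining ependymal cell markers were the set in which all members separated: in 5 of 5 genes the groups did not overlap, with the Cre-labelled libraries higher (11.1% of all genes). Cd24a, a surface glycoprotein of ependymal cells and also of immature neurons and many epithelia, stood at 44.0, 43.6 and 43.0 CPM with the GFP label and at 66.8, 60.6 and 69.3 CPM with the Cre label. The GFP-labelled values were almost equal, and the log2 difference was 0.59 ± 0.069 (SE; 1.51-fold; edgeR adjusted p = 0.0592, the lowest of the 41; DESeq2 adjusted p = 1.44e-08). Ccdc153, a marker transcript of ependymal cells (chromosome 9, 44240676 to 44247306, plus strand), was at 27.6, 27.6 and 33.3 against 47.8, 36.5 and 42.3 CPM (0.51 ± 0.12, SE; edgeR adjusted p = 0.111; DESeq2 adjusted p = 0.00476). Tmem212, a membrane protein of multiciliated cells, was at 8.14, 9.26 and 11.7 against 22.9, 14.1 and 12.6 CPM. Its Cre-labelled library 1 was far above the other 2, and the log2 difference moved from 0.76 ± 0.25 (SE) to 0.47 without that library. Rarres2, the secreted attractant chemerin, had the same shape at 30.4, 32.5 and 34.5 against 55.5, 36.7 and 37.3 CPM, and its difference of 0.41 became 0.20 without Cre-labelled library 1. Mia, a small secreted protein, stood at 1.43, 2.45 and 2.86 against 4.15, 3.43 and 4.02 CPM, with 62 to 223 counts a library. The Mia and Rarres2 values are uncertain as to source: 41.2% of the exonic length of Mia is shared with Gm21983 on the same strand, and 33.6% of that of Rarres2 overlaps Lrrc61 on the other strand. None of these 5 passed edgeR's threshold.

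Other genes of motile cilia, 73 of which were tested from a list of 77, had a median log2 difference of 0.19. The difference was above 0 for 48 (49% of all genes) and below 0 for 25, and 0 passed in edgeR. At an unadjusted p under 0.05, 21 were higher (8.11% of all genes) and 1 lower (9.11%), and the groups did not overlap for 22 in the higher (11.1%) and 1 in the lower direction (11.7%). Drc3, of the nexin-dynein regulatory complex, stood at 19.4, 19.4 and 17.9 against 26.6, 23.2 and 26.0 CPM (0.42 ± 0.092, SE; edgeR adjusted p = 0.10). Fam216b stood at 14.97, 17.99 and 13.7 against 29.3, 20.8 and 24.3 CPM (0.67 ± 0.15, SE; edgeR adjusted p = 0.107), and DESeq2 called 8 of this list, all higher (3.12% of all genes were called higher and 4.91% lower). GFP-labelled library 1 was at 1.5 times or more the mean of the other 2 GFP-labelled libraries for 30 of these genes (12.3% of all genes), and without it 70 differences were above 0 (51.6% of all genes) and 3 below, with a median of 0.35. Of 13 tested genes that start multiciliated cell formation or copy centrioles, 9 were above 0 (49% of all genes, median 0.26) and 4 below, and 0 passed in edgeR. The lowest difference was -0.90. At an unadjusted p under 0.05 in edgeR, 3 were higher (8.11% of all genes) and 1 lower (9.11%). The groups did not overlap for 4 in the higher (11.1%) and 1 in the lower direction (11.7%). E2f4, a cofactor of the multiciliogenesis programme that many cells express, was at 18.3, 18.1 and 21.3 against 25.3, 25.2 and 26.5 CPM. Trp73, a p53 relative needed for multiciliated cells, was at 6.15, 6.77 and 7.58 against 11.5, 9.24 and 8.48 CPM (edgeR adjusted p = 0.105 for E2f4 and 0.201 for Trp73). DESeq2 called E2f4 higher (adjusted p = 0.0163) and did not call Trp73 (adjusted p = 0.116). Intraflagellar transport and BBSome genes, which primary cilia of all cell types use, had 22 of 36 above 0 (49% of all genes) and a median of 0.057, which was 0.07 without GFP-labelled library 1; 0 passed in edgeR, and at an unadjusted p under 0.05, 4 were higher (8.11% of all genes) and 1 lower (9.11%). Kifap3, a kinesin-associated protein abundant in neurons, stood at 270.2, 268 and 271 against 232, 243 and 230.1 CPM (-0.20 ± 0.048, SE), and Bbs2 at 37.9, 40.1 and 42.4 against 49.3, 47.3 and 45.4 CPM (0.24 ± 0.072, SE), with edgeR adjusted p of 0.117 and 0.169. DESeq2 called Kifap3 lower (adjusted p = 0.00271) and did not call Bbs2 (adjusted p = 0.0929).

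**Figure D4:**
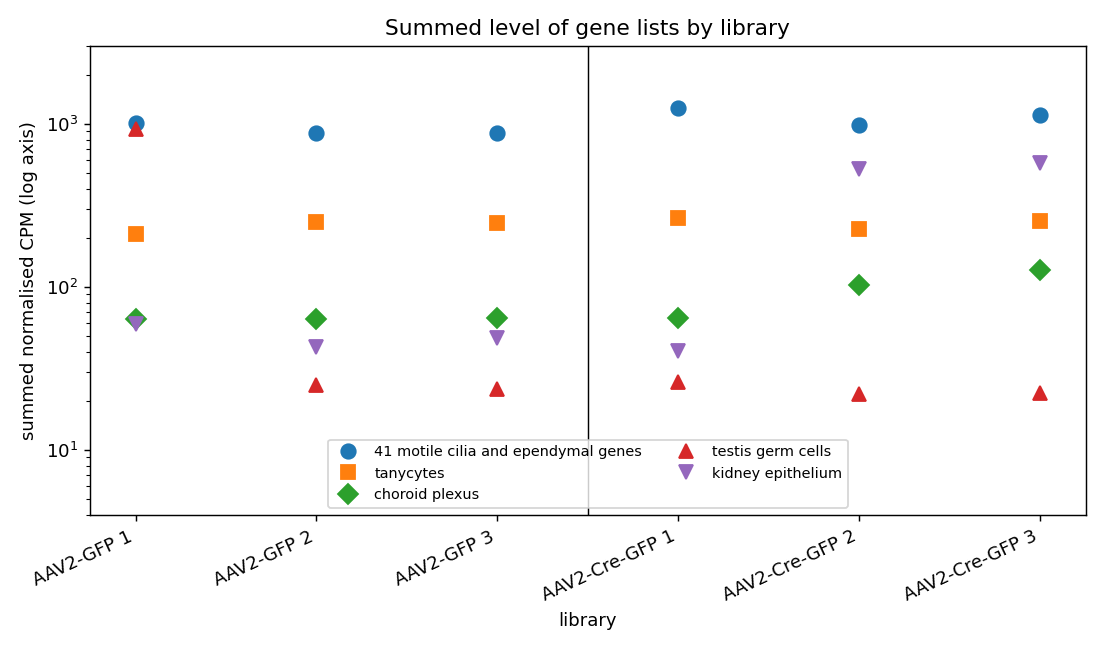
Summed normalised CPM (log axis) of the 41 genes and of 4 marker lists in each library. The testis list stands at 926 in GFP-labelled library 1 and the kidney list at 529 and 571 in Cre-labelled libraries 2 and 3, while the 41 genes lie between 879 and 1256.

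Cell types next to the ependyma were measured alongside. Tanycytes, the related cells of the ventricle floor, had a list of 14 genes with 11 above 0, 3 below 0 and a median of 0.23. Its sum ran from 211 to 248 CPM with the GFP label and from 227 to 262 CPM with the Cre label. That sum leans on Col25a1, the most abundant of the list, at 87.3, 100.2 and 105.8 against 92.8, 78.5 and 79.2 CPM (log2 difference -0.23). Vim, the next, stood at 42.6, 55.7 and 52.1 against 67.1, 63.2 and 66.7 CPM, without overlap (0.39). At low levels, Cdkn1c (1.96 to 2.27 against 2.51 to 3.64 CPM) and Adm (0.764 to 0.970 against 1.02 to 1.37 CPM) did not overlap either. Of all genes, 11.1% were higher without overlap. Rax, the defining factor of tanycytes, was at 0.0925 to 0.72 CPM. Choroid plexus genes summed to 63.3 to 64.1 CPM with the GFP label and to 64.2, 102 and 126 CPM under the Cre label. The last 2 are those with kidney transcripts. Ttr, the most abundant transcript of choroid plexus tissue, was at 3.34 and 8.24 CPM in them, at most 1.04 CPM in the other 4 and without a count in GFP-labelled library 1, and Oca2 was at 0 in 5 of 6 libraries. Prlr, Clic6 and Aqp1 led the list; Aqp1, which kidney also expresses, was at 19.9 and 22.8 CPM in Cre-labelled libraries 2 and 3 and at most 3.25 CPM elsewhere. Leptomeningeal genes had 7 of 8 above 0 and a median of 0.46, with sums of 82.6 to 89.7 CPM under the GFP label and of 76.0, 90.4 and 122 CPM under the Cre label. Of this list, Slc22a6 was at 11.5 and 12.8 CPM in Cre-labelled libraries 2 and 3, those with kidney transcripts, and at most 1.87 CPM elsewhere. Dcn stood at 8.58, 8.10 and 9.13 against 12.7, 12.1 and 13.7 CPM, without overlap. Ogn, at most 2.47 CPM, did not overlap either. Both were thus higher in Cre-labelled library 1 as well, where the kidney sum was 40.4 CPM. Igf2, the most abundant, was the 1 gene below 0 (-0.26), and its groups overlapped. Endothelial and mural genes had 7 of 10 above 0 and a median of 0.16, with sums of 221 to 281 against 221 to 297 CPM. The sums of the leptomeningeal list and of the endothelial and mural list each overlapped between the groups. Astrocyte genes summed to 3819 to 4041 against 3719 to 4045 CPM and microglial genes to 351 to 391.8 against 373 to 400 CPM, overlapping in both cases. Oligodendrocyte genes overlapped too, at 2523 to 3105 against 2518 to 3040 CPM. Within the astrocyte list 7 genes were above 0 and 3 below (median 0.091), and 2 genes separated in opposite directions. Slc1a2, the most abundant, stood at 1762, 1673 and 1593 against 1495, 1466 and 1395 CPM. S100b stood at 72.9, 76.5 and 86.2 against 109, 110 and 105 CPM. Neuronal genes did not overlap, at 4674 to 4790 against 3722 to 4266 CPM, with all 10 below 0. The part that these shifts and those of the PVH genes have in the differences of the cilium genes was not tested. Nor was the part of the germ cell and kidney transcripts or of the ribosomal RNA. Only values with libraries left out are given, above.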

How the data were processed

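Poly(A) RNA was sequenced as read pairs from dUTP-marked libraries with molecular identifiers, per the labels' protocols; whether counting used strand or identifiers is not given in the sources used here. Cutadapt, HISAT2, StringTie and build mm9 are named in the submitters' processing notes, but 32009 of 35024 gene identifiers shared with GENCODE M21 have its GRCm38 start and end. The counts per gene were deposited by the authors without normalization, beside FPKM values made by the authors, which are per length of the gene and depth of the library. Columns were matched to libraries by name.

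The 41 genes and all lists were chosen with earlier results of these data known. From the counts, edgeR 4.0.16 (R 4.3.3) with TMM factors, filterByExpr (minimum count 10) and no covariate tested 20865 genes by a quasi-likelihood F test with Benjamini-Hochberg adjustment over all of them (threshold 0.05). Standard errors are the log2 difference over the root of F. All 41 genes passed the filter. Alternatives used DESeq2 1.42.0, other scalings and filters, a replicate block, left-out libraries and limma 3.58.1 on log2(FPKM + 0.5). The fits were tested on simulated data. The genes that could be named were the 41, the 2 with the smallest p of each wider list with no call, the 3 most abundant of each marker list, testis markers at 0 and Ruvbl2. Spag6l, Sim1, Oxt, Avp, Crh, Rax, Ttr, Oca2, S100b and Slc22a6 were added after their values were seen. So were Gja1, Fgfr3, Ogn, Cdkn1c and Adm. The ribosomal RNA model CT010467 was not among the genes that could be named either. The common biological coefficient of variation was 27.1%, and no 2 libraries agreed within sampling noise. Same-numbered libraries did not deviate together (correlations between -0.044 and 0.012).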

Additional observations from a re-analysis of the deposited data

How the results depend on the processing

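Genes past the threshold in the whole table numbered 2 in the main analysis and 1322 with DESeq2, 1 with library totals alone, 9 with upper-quartile factors, 1 with no filter, 22 with a robust fit, 15 and 1 with limma at a pseudocount of 0.1 and without a filter, and 1 to 296 with 1 library left out. Without the 3 libraries with transcripts of other organs they numbered 1059, and with DESeq2 without AAV2-GFP library 1, added after seeing the data, 1207. Of the 41 cilium genes 0 passed in the main analysis, 7 with DESeq2, 2 with a robust fit, 14 without the 3 libraries, 1 with limma at a pseudocount of 0.1, 7 with DESeq2 without AAV2-GFP library 1, and 0 to 2 with 1 library left out. Of the wider cilium lists 0 passed in the main analysis, 10 with DESeq2 (9 higher, where 3.12% of all genes were, and 1 lower, 4.91%), 19 without the 3 libraries (all higher, 1.24%) and 15 with DESeq2 without AAV2-GFP library 1 (14 higher, 2.41%, and 1 lower). These lists held 73, 13 and 36 tested genes. The median of the 41 was 0.56 without the 3 libraries and between 0.19 and 0.40 with 1 library left out. With the replicate block, whose numbers are not shown to pair libraries, the median was 0.26, 3 genes passed in the table and 0 of the 41. Across 18 alternatives 25 of the 41 kept their direction and 16 did not. With 1 library left out, the log2 differences of those 16 ranged as follows: Ccdc39 -0.10 to 0.12, Cfap43 -0.0395 to 0.44, Cfap45 -0.23 to 0.35, Dnah12 -0.077 to 0.25, Enkur -0.0305 to 0.31, Lrrc6 -0.30 to 0.0069, Rfx2 -0.34 to 0.22, Rfx3 -0.21 to 0.039, Rsph1 -0.79 to 0.18, Rsph9 -0.077 to 0.30, Spag17 -1.06 to 0.41, Spag6 -3.49 to 0.40, Tekt1 -0.36 to 0.32, Tekt4 -0.41 to 0.43, Tppp3 -0.035 to 0.16 and Zmynd10 -0.14 to 0.67. Other values that changed sign were, without the 3 libraries, Ccdc39 0.12, Cfap45 0.61, Lrrc6 0.16, Rfx2 0.41, Rfx3 0.19, Rsph1 0.27, Spag17 0.62, Tekt1 0.56 and Tekt4 0.87; with DESeq2 without AAV2-GFP library 1, Ccdc39 0.13, Cfap45 0.35, Lrrc6 0.0081, Rfx2 0.22, Rsph1 0.19, Spag17 0.42, Spag6 0.39, Tekt1 0.32, Tekt4 0.43 and Tppp3 -0.033; with the replicate block, Cfap45 0.0025; with library totals alone, Ccdc39 0.027; with no filter, Ccdc39 0.002; with limma on log2(FPKM + 0.5), Ccdc39 0.025 and Cfap45 0.028, the same without its filter; at a pseudocount of 0.1, Ccdc39 0.028 and Cfap45 0.041; and at a pseudocount of 1, Ccdc39 0.022 and Cfap45 0.019. The cause was not tested. The lowest counts were those of Spag6 (0 to 172 a library) and Mia (62 to 223).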
